A study of Caenorhabditis elegans with 24 samples.

Results

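Whole worms collected 48 h after blunt force trauma were compared with uninjured worms of the same age. The comparison took 8 of the 24 libraries of the series, 4 injured and 4 control, which were chosen by their time and treatment labels. Of 46739 listed features it tested 13611, those that reached 1 RPKM (reads scaled to transcript length and to the mapped reads of a library) in 4 or more of these 8 libraries. The study followed injury over 3 times, 8, 48 and 96 h, each with its own 4 injured and 4 control libraries.

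By the labels all groups were wild-type N2 worms kept at 25 °C on RNAi against cdc-25.1, so the controls carried the RNAi as well. cdc-25.1 encodes a cell cycle phosphatase that the germline needs to proliferate, and its knockdown is used to leave adults without progeny. The injured group was agitated at 8600 rpm for 16 s on day 1 of adulthood and the control group was suspended, washed and centrifuged alike but not agitated. Where legends of the study name another strain, CF512, the labels were followed. The labels number biological replicates but do not say whether they were separate cultures, so each p-value measures only the spread between these samples.

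An adult worm is largely germline, intestine, muscle and epidermis, and a whole-worm library mixes them all. The germline supplies oocytes with maternal mRNAs that RNA-binding proteins keep silent until fertilization. The intestine makes yolk, stores fat, digests bacteria and secretes lysozymes, lectins and pore-forming peptides, while the epidermis secretes the collagens of the cuticle. In such bulk samples, fewer cells of a type and less RNA per cell cannot be told apart.

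Sequencing depth, estimated from the steps between low RPKM values, was 21850000 to 25875000 mapped reads in the injured libraries. It was 21100000 to 24025000 in control libraries 1 to 3 and 61225000 in control library 4. Reads of rRNA genes took 1.2% to 2.01% of the injured libraries, 1.45%, 8.29% and 1.98% of control libraries 1 to 3 and 46.1% of control library 4, which lowers every other deposited RPKM there. The libraries were therefore scaled by the median of ratios, with factors of 0.475 for control library 4 and 0.862 to 1.24 for the others, and levels below are scaled RPKM unless stated. All changes are relative to the median gene, whose log2 change was 0.06 after scaling, 0.52 in RPKM as deposited, 0.30 after scaling to reads outside rRNA genes and 0.21 after scaling to the summed RPKM outside them. Defining markers of germline, intestine, body wall muscle, pharynx, epidermis, neurons and coelomocytes were detected. The embryo markers end-1, end-3, med-1, tbx-35 and pes-10 stood at 1.38 RPKM as deposited or less in every library, and sperm markers at 2.49 or less.

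After injury 8525 genes changed, 62.6% of those tested, at a limma adjusted p below 0.05. Of these 4549 were higher, 33.4% of the genes tested, and 3976 lower, 29.2%, and counts within gene lists below are to be read against these shares. At least 2-fold changes numbered 1260 higher and 1513 lower, and at least 4-fold changes 66 higher and 314 lower. The 4 injured libraries all lay above the 4 control libraries for 3898 genes, 28.6%, and all below for 3635 genes, 26.7%. The split between directions depended on the scaling. Of the 13611 genes the fit on RPKM as deposited called 5485 higher (82.9% of calls against 53.4%) and 1133 lower. List counts given below for RPKM as deposited are to be read against these 2 counts, not against the shares above. The fit without control library 4 called 4337 higher and 3697 lower. The gene lists were thus read by how far their members stood from the median gene, which was at 0.52 in RPKM as deposited.

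**Figure D1:**
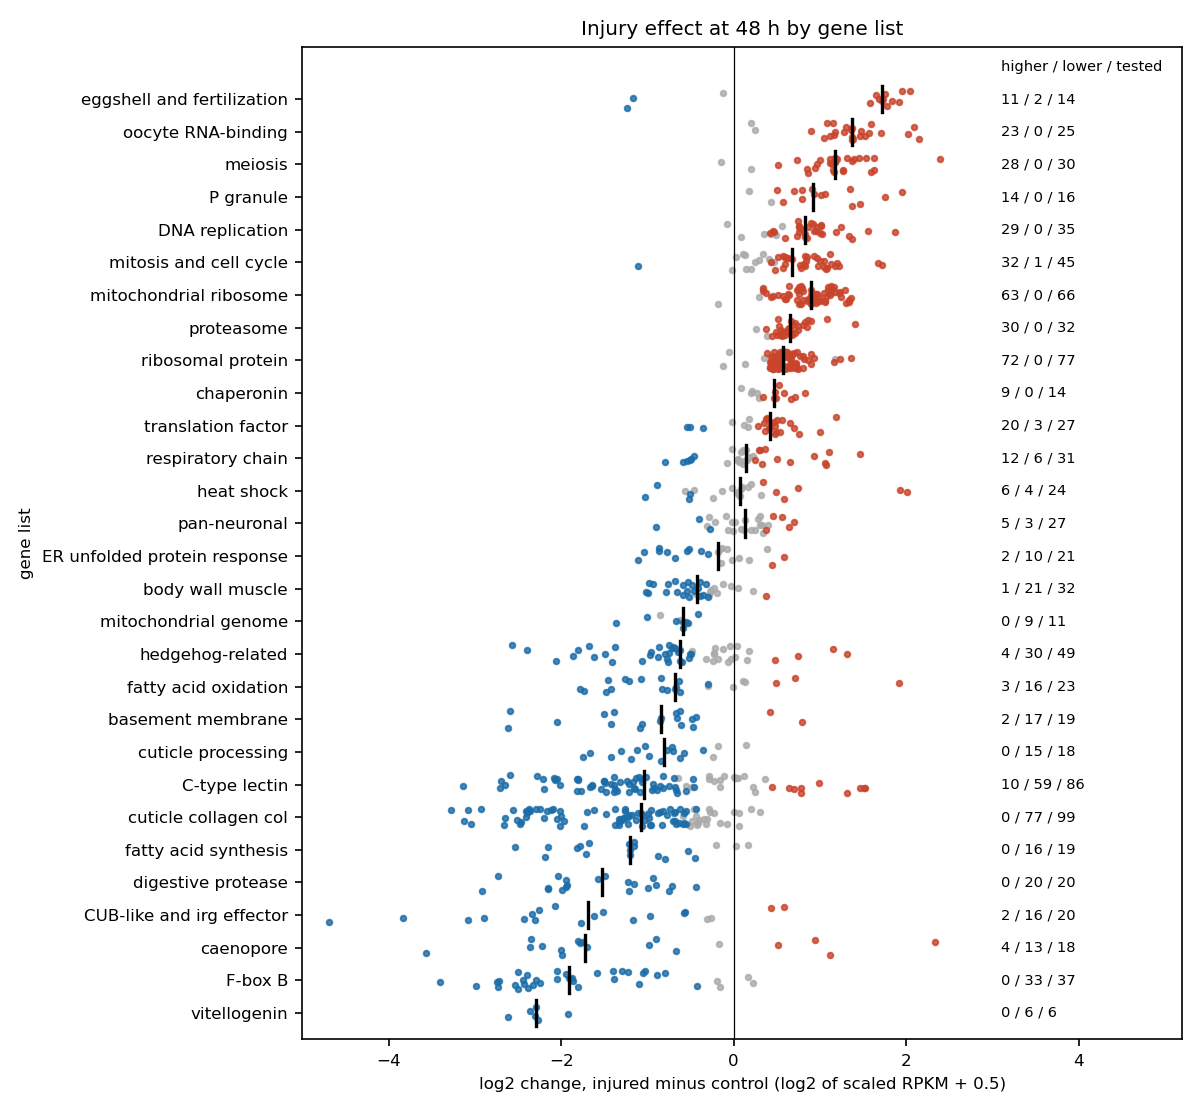
Injury effect at 48 h by gene list. Each dot is the log2 change, injured minus control, of 1 tested gene, in red where called higher, blue where called lower and grey where not called (limma), the black bar is the list's median, and the numbers at the right count genes higher, lower and tested. Lists of the germline and of protein synthesis and turnover lie to the right. Lists of yolk, digestion, secreted immune effectors and extracellular matrix lie to the left. As RPKM was deposited the medians of body wall muscle and ER unfolded protein response were 0.07 and 0.34, against 0.52 for the median gene.

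The study follows fos-1, vhp-1, lys-3 and cat-2. fos-1 (V, 6003601 to 6016087), which encodes an AP-1 transcription factor, read 34.3, 41.03, 38.7 and 37.2 in the control libraries and 38.7, 36.9, 38.4 and 38.8 in the injured ones. vhp-1, a phosphatase of JNK and p38 kinases, averaged 126 ± 14.4 (SD, n = 4) in controls and 126 ± 4.09 in injured worms. Both groups overlapped for both genes, with log2 changes of 0.02 ± 0.10 (SE) and limma adjusted p of 0.878 for fos-1 and 0.902 for vhp-1. lys-3, a lysozyme gene on chromosome V, read 11.4, 8.28, 10.8 and 8.65 in controls and 60.1, 86.0, 58.9 and 57.3 after injury. Its groups stood well apart, a rise of 2.67 ± 0.16 on the log2 scale (limma adjusted p = 4.06e-07). cat-2, the tyrosine hydroxylase gene of dopamine synthesis, reached an RPKM of 1 in 3 of the 8 libraries and did not pass the filter, with 0.900 ± 0.181 in controls and 0.896 ± 0.322 in injured worms. The RNAi target cdc-25.1 (I, 6469386 to 6471922) read 37.4, 19.2, 9.29 and 30.9 in controls and 58.9, 113, 74.9 and 56.6 after injury, a rise of 1.75 ± 0.37 (limma adjusted p = 0.00179). Reads assigned to cdc-25.1 were thus present in all 8 libraries. Reads of its mRNA and of the feeding RNA cannot be told apart, so the rise cannot be assigned to either.

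Genes of oocytes stood higher after injury. The oocyte RNA-binding list was built around proteins that silence maternal mRNAs or set germ cell fate. Of its 25 genes 23 rose, none fell, and the median log2 change was 1.37. puf-3 (IV, 13510307 to 13512162), a Pumilio-family repressor of oocytes, read 44.4, 42.0, 23.4 and 51.8 in controls and 248, 117, 188 and 168 after injury. Each injured library lay above each control library, and puf-3 rose 4.44-fold (log2 2.15 ± 0.26, limma adjusted p = 3.19e-05). mei-2, a subunit of the katanin that cuts microtubules of the meiotic spindle, rose from 37.8 ± 10.4 to 124 ± 30.8. car-1, an RNA granule protein of the germline, rose from 124 ± 22.8 to 306 ± 45.8. Injured library 2 was the lowest of the injured libraries for all 3 genes, and without it 25 of the 25 members rose with a median of 1.59.

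The list of eggshell and fertilization genes held members in both directions. Of 14 members 11 rose, 2 fell and the median was 1.72. The list's share of the summed RPKM outside rRNA genes was 1.42% ± 0.203 in controls and 1.04% ± 0.0746 after injury, with overlapping libraries. cpg-3, a chondroitin proteoglycan of the eggshell, rose from 51.3 ± 15.4 to 192 ± 44.1, and rme-2, the oocyte receptor that takes up yolk, from 56.5 ± 19.4 to 190 ± 59.1. perm-2 and perm-4, which encode proteins of the eggshell's permeability barrier, fell against the rest of the list. perm-4 (IV, 1121494 to 1125107) read 4921, 5440, 4658 and 4425 in controls and 1668, 2364, 1896 and 2397 after injury, a log2 change of -1.24 ± 0.14 (limma adjusted p = 1.92e-05). These 2 calls were lost in RPKM as deposited, where the log2 changes were -0.65 for perm-2 and -0.72 for perm-4.

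P granules are the RNA and protein condensates of germ cells, and 14 of 16 genes listed for them rose while none fell. wago-1, a germline Argonaute that silences foreign RNA, read 31.4, 31.9, 22.9 and 39.2 in controls and 156, 87.5, 129 and 121.7 after injury. The libraries did not overlap, and wago-1 rose 3.88-fold (log2 1.96 ± 0.19, limma adjusted p = 8.36e-06). pgl-3, a scaffold of the granules, rose 3.37-fold and the helicase gene glh-4 rose 2.597-fold.

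Meiotic genes moved the same way, with 28 of 30 higher, none lower and a median of 1.18. lab-1 (I, 9657012 to 9658023), which protects sister chromatid cohesion on the long arm of paired chromosomes, gave the largest change of the list. It read 8.03, 4.81, 4.96 and 9.82 in controls and 48.4, 31.6, 37.9 and 32.3 after injury, a rise of 5.27-fold (log2 2.40 ± 0.22, limma adjusted p = 6.48e-06). syp-2, of the central region of the synaptonemal complex, rose 3.102-fold, and zim-3, a zinc finger protein of chromosome pairing centres, 2.89-fold. The libraries of the groups were fully apart for these 3 genes.

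Small RNA genes divided between Argonautes. Of 21 tested members of 23 listed, 14 rose and 3 fell. hrde-1, the nuclear Argonaute of germline inheritance of RNAi, rose from 28.3 ± 6.04 to 101 ± 23.4, and ego-1, a germline RNA-dependent RNA polymerase, from 7.59 ± 0.791 to 21.9 ± 4.29. alg-1 and alg-2, the Argonautes of microRNAs, fell from 41.9 ± 6.70 to 21.4 ± 2.75 and from 38.4 ± 6.61 to 24.5 ± 3.35. sago-1, an Argonaute of secondary siRNAs, read 48.2, 53.2, 47.4 and 48.1 in controls and 19.1, 23.5, 20.4 and 26.6 after injury, a log2 change of -1.13 ± 0.12 (limma adjusted p = 1.68e-05). The calls for these 3 lower genes were lost in RPKM as deposited.

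Genes of the dividing cell rose with those of the germline. In an adult worm only germ cells divide, and these lists do not separate division from the maternal stores of oocytes. Of 35 DNA replication genes 29 rose and none fell, with a median of 0.83. psf-1 and psf-3, subunits of the GINS complex of the replicative helicase, rose 2.52-fold and 2.595-fold. cdc-7, the kinase that fires origins, rose 2.94-fold, from 12.4 ± 2.54 to 37.3 ± 5.79. Of 45 tested genes of mitosis and the cell cycle 32 rose and 1 fell. The B-type cyclin genes cyb-2.1 and cyb-2.2 rose 3.30-fold and 3.19-fold, and klp-7, a kinesin that shortens microtubules, 2.34-fold. The lower gene was cdc-25.2, a second phosphatase of the family of the RNAi target. It read 34.5, 34.3, 24.6 and 37.7 in controls and 18.4, 9.69, 15.9 and 16.6 after injury, opposite in direction to cdc-25.1, although this call was lost in RPKM as deposited.

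Genes that embryos switch on themselves were low in every library. Of 17 listed, 6 passed the filter, 2 of them without an injured library at 1 RPKM, and 4 fell, or 2 of 4 tested without control library 4. sdz-28 was the highest, with 7.30, 6.26, 5.18 and 8.94 in controls and 2.04, 1.01, 0.968 and 1.58 after injury. ceh-51, vet-6 and tbx-38 fell to means of 0.588, 0.866 and 0.625, while oocyte genes rose in the same libraries.

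Gap junction genes of the gonad did not all move alike. inx-14 and inx-22 encode the innexins of germ cells and inx-8 and inx-9 those of the sheath around them. inx-14 rose from 12.8 ± 3.23 to 37.6 ± 7.32 and inx-22 from 14.9 ± 4.55 to 42.2 ± 11.7. inx-8 read 118, 107, 110 and 115 in controls and 48.8, 74.2, 59.0 and 64.9 after injury, a log2 change of -0.87 ± 0.13 (limma adjusted p = 0.000123). inx-9 averaged 48.9 ± 2.73 and 47.9 ± 4.12 and its libraries overlapped (limma adjusted p = 0.807). lim-7, a sheath cell transcription factor, fell from 13.7 ± 1.33 to 6.61 ± 0.391. The calls for inx-8 and lim-7 were lost in RPKM as deposited. Over the whole somatic gonad list 3 of 12 rose and 4 fell, with a median of -0.05. In RPKM as deposited 3 rose, none fell and the median was 0.44, against 0.52 for the median gene.

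**Figure D2:**
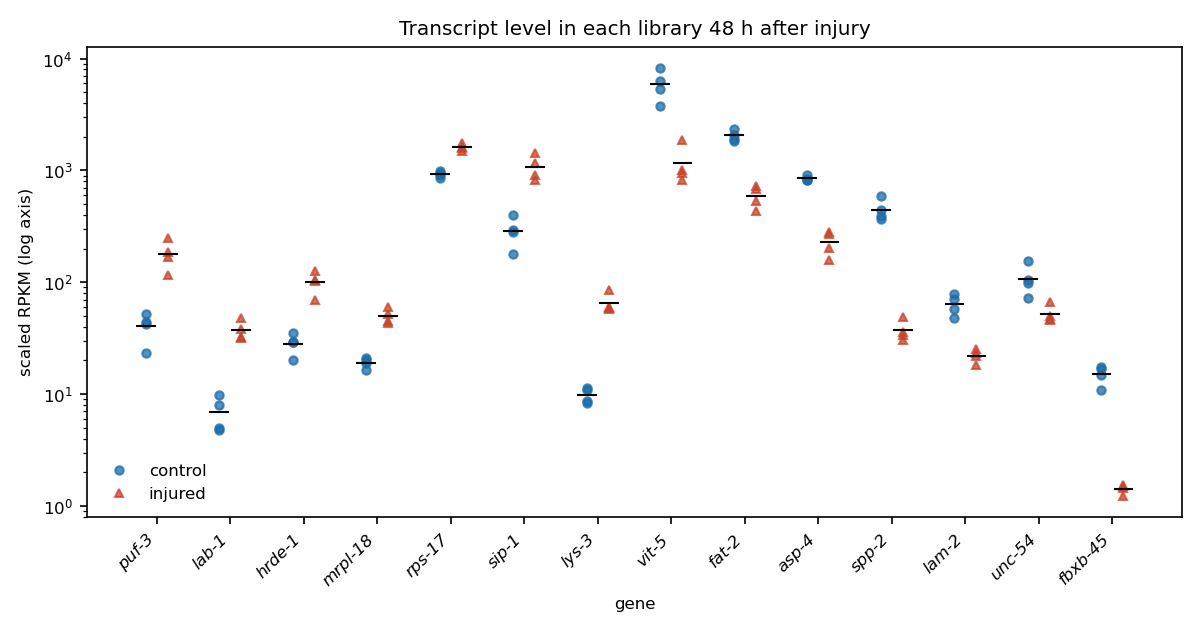
Transcript level of 14 genes in each library 48 h after injury. Circles are the 4 control libraries, triangles the 4 injured libraries and black bars the group means, on a logarithmic axis of scaled RPKM. The injured libraries lay above all controls for the first 7 genes, puf-3 to lys-3, and below all controls for the other 7, vit-5 to fbxb-45, of which unc-54 lost its call in RPKM as deposited.

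Protein synthesis genes rose by less per gene but in greater number. Of 77 tested genes of the cytosolic ribosome 72 rose and none fell, with a median of 0.58. rps-17 read 919, 862, 955 and 983 in controls and 1635, 1771, 1595 and 1502 after injury. The spread within a group was small beside the difference, a rise of 1.75-fold (log2 0.81 ± 0.10, limma adjusted p = 4.06e-05). rpl-11.1, 1 of a pair of genes for the same subunit, rose 2.56-fold. Transfer RNA synthetase genes followed with 12 of 21 higher and none lower, among them vars-2, for valine, from 42.9 ± 3.25 to 80.3 ± 5.78 and kars-1, for lysine, from 58.1 ± 5.45 to 102.3 ± 17.1. Of 27 initiation and elongation factors 20 rose and 3 fell.

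Several families of basic metabolism and translation held members that moved in opposite directions, and these were picked after their values were seen. ife-1 and ife-3, cap-binding factors expressed in the germline, rose from 58.7 ± 3.48 to 118 ± 9.58 and from 52.2 ± 10.2 to 120 ± 21.6. ife-2, the isoform of somatic tissues, and ife-4 read lower after injury, with log2 changes of -0.35 ± 0.10 (limma adjusted p = 0.0116) and -0.51 ± 0.12 (limma adjusted p = 0.00313). Likewise eef-1A.1, an elongation factor gene on chromosome III, rose by 0.43 and its copy eef-1A.2 on chromosome X fell by 0.54 on the log2 scale with overlapping libraries. The eef-1A.1 call was lost without control library 1. Among ATP synthase genes, asb-1 (III) rose 2.15-fold and asb-2 (X) fell 1.74-fold, while asg-1 (I) rose 1.57-fold and asg-2 (X) fell 1.40-fold. Of the complex III genes, ucr-2.3 (III) rose 2.75-fold, and ucr-2.1 and ucr-2.2 (both X) fell 1.38-fold and 1.5-fold. The glyceraldehyde phosphate dehydrogenase genes split the same way, gpd-1 and gpd-4 (both II) rising 3.29-fold and 3.06-fold and gpd-2 and gpd-3 (both X) falling 1.96-fold and 1.97-fold. All 9 lower members lay on chromosome X and lost their calls in RPKM as deposited, where the direction of ife-2, ucr-2.1 and asg-2 turned, and the members of a pair are alike in sequence, so reads may have been shared between them.

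The mitochondrial ribosome and the mitochondrial genome moved apart. Of 66 nuclear genes for the mitochondrial ribosome 63 rose and none fell, with a median of 0.90. mrps-26 (III, 5234612 to 5236364) read 17.7, 16.1, 16.2 and 17.9 in controls and 48.8, 42.2, 44.5 and 39.6 after injury. Its groups were far apart, 2.53-fold (log2 1.34 ± 0.11, limma adjusted p = 2.62e-06). mrpl-18 and mrpl-45 rose 2.56-fold and 2.52-fold. Of the 11 tested protein genes of mitochondrial DNA none rose and 9 fell, with a median of -0.59. ctc-3, a subunit of cytochrome oxidase, read 2814, 3133, 3006 and 3735 in controls and 1692, 2224, 1757 and 2317 after injury, a log2 change of -0.67 ± 0.14 (limma adjusted p = 0.00123). In RPKM as deposited 1 of these 11 genes fell, and without control library 4 there were 6. Poly(A) selection captures mitochondrial transcripts unevenly, and its part in these values was not tested.

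Of 31 nuclear genes of the respiratory chain 12 rose and 6 fell. These counts depended on the scaling, as 14 were higher and none lower in RPKM as deposited, and 23 were higher and 3 lower after scaling to reads outside rRNA genes. The list took 0.481% ± 0.0434 of the summed RPKM in controls and 0.598% ± 0.0252 after injury, without overlap. The mitochondrial chaperone genes hsp-60 and hsp-6 rose 2.31-fold and 1.52-fold. dve-1, a homeodomain factor of the mitochondrial unfolded protein response, fell from 14.3 ± 2.23 to 8.48 ± 0.569, a call lost in RPKM as deposited.

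Protein turnover and folding genes depended on the compartment. Of 32 proteasome subunits 30 rose and none fell, with a median of 0.65. pas-7 of the core particle read 66.8, 58.7, 59.7 and 68.4 in controls and 152, 124, 138 and 126 after injury, with every injured library above every control (log2 1.08 ± 0.11, limma adjusted p = 8.52e-06). Of 14 genes of the cytosolic chaperonin and prefoldin 9 rose and none fell. In the endoplasmic reticulum 10 of 21 chaperone and sensor genes fell and 2 rose. enpl-1, the Grp94 chaperone, read 446, 488, 416 and 571 in controls and 224, 211, 226 and 270 after injury. Its libraries did not overlap (log2 -1.04 ± 0.12, limma adjusted p = 3.34e-05). hsp-3, 1 of a pair of BiP genes, fell from 452 ± 81.1 to 246 ± 28.9, while the other, the stress-induced hsp-4, averaged 155 ± 28.6 and 175 ± 9.78 (limma adjusted p = 0.231). In RPKM as deposited none of these 21 genes fell, 4 rose and the median was 0.34, against 0.52 for the median gene.

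Of 24 heat shock genes 6 rose and 4 fell, with a median of 0.07. Without injured library 2 there were 6 higher and 7 lower with a median of -0.08, in RPKM as deposited 8 higher and none lower with a median of 0.59, and after scaling to reads outside rRNA genes 10 higher and 2 lower. sip-1, a small heat shock protein of oocytes and embryos, read 293, 284, 180 and 396 in controls and 1432, 816, 1173 and 907 after injury. That was a rise of 3.8-fold (log2 1.93 ± 0.23, limma adjusted p = 3.39e-05). hsp-12.6 rose from 2.98 ± 0.926 to 14.5 ± 8.16 with injured library 2 the highest at 26.3. The heat-inducible hsp-70 read 28.6, 34.1, 32.4 and 35.8 in controls and 19.9, 32.7, 21.1 and 19.5 after injury, and the libraries of the groups overlapped (log2 -0.51 ± 0.16, limma adjusted p = 0.0170). The hsp-70 call was lost without injured library 4 and under every scaling except TMM.

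Yolk genes had the lowest list median, with lys lysozymes close at -2.29. The order reversed without control library 4 (-2.26 for yolk against -2.27) and without injured library 2 (-2.24 against -2.32). All 6 vitellogenins fell, with a median of -2.30, and the list's median stayed at -1.78 in RPKM as deposited. vit-5 (X, 3403471 to 3408603) read 5375, 8178, 3780 and 6293 in controls and 818, 939, 1015 and 1889 after injury. The highest injured library was below the lowest control, a fall of 5.16-fold (log2 -2.37 ± 0.27, limma adjusted p = 2.51e-05). vit-4 fell 6.13-fold and vit-1 fell 3.77-fold. The yolk receptor rme-2 rose in the same libraries, as given above.

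Other intestinal genes did not move as 1 block. elt-2, the GATA factor that maintains intestinal identity, fell from 18.3 ± 1.89 to 8.63 ± 2.00, and vha-6, the proton pump subunit of the apical gut membrane, from 108 ± 11.1 to 40.6 ± 8.40. act-5, the actin of intestinal microvilli, averaged 247 ± 16.7 and 266 ± 47.1 with overlapping libraries (limma adjusted p = 0.551). Genes for intestinal intermediate filaments went the other way. ifp-1 read 4.78, 5.497, 3.22 and 4.25 in controls and 12.8, 15.6, 13.3 and 11.98 after injury, a rise of 2.85-fold (log2 1.51 ± 0.16, limma adjusted p = 1.43e-05), and ifd-2 rose 2.19-fold. Over the list of intestinal identity 4 of 19 rose and 10 fell. In RPKM as deposited 4 rose, 3 fell and the median was 0.03, against 0.52 for the median gene.

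Digestive proteases fell throughout. All 20 tested of 28 listed cathepsin and aspartyl protease genes fell, with a median of -1.53, and 12 fell in RPKM as deposited. asp-4 (X, 13218985 to 13221462), a lysosomal aspartyl protease, read 843, 823, 824 and 912 in controls and 158, 284, 203 and 272 after injury. The groups were separated by more than their spread, 3.8-fold (log2 -1.93 ± 0.17, limma adjusted p = 4.45e-06). cpr-6, a cathepsin B, fell 3.97-fold and asp-13 fell 6.65-fold.

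Genes that build fatty acids fell together, 16 of 19 with none higher and a median of -1.2. In RPKM as deposited 8 of them fell and the median was -0.68. fat-2 (IV, 13323873 to 13326395), the desaturase that makes linoleic acid, read 1849, 2088, 1927 and 2354 in controls and 435, 686, 533 and 720 after injury. That was a fall of 3.51-fold (log2 -1.81 ± 0.16, limma adjusted p = 4.86e-06). elo-5 and acs-1, which make monomethyl branched fatty acids, fell 3.44-fold and 3.28-fold. Of 23 genes of fatty acid oxidation 16 fell, among them icl-1 of the glyoxylate shunt at 2.79-fold, and 3 rose, or 7 and 3 in RPKM as deposited. acs-2, an acyl-CoA synthetase induced by fasting, was the exception with the largest rise. It read 4.13, 4.91, 3.51 and 6.84 in controls and 20.1, 20, 19.3 and 17.8 after injury, 3.79-fold higher (log2 1.92 ± 0.17, limma adjusted p = 5.06e-06). Of 16 tested lipases 12 fell, with lipl-2 and lipl-5 of the lysosome at 5.55-fold and 4.35-fold, and 3 rose, or 6 and 3 in RPKM as deposited. pck-1, the entry enzyme of gluconeogenesis, fell from 166 ± 23.8 to 58.3 ± 9.71, and pmt-2, which methylates phosphoethanolamine, from 144 ± 12.6 to 50.3 ± 11.5.

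Secreted immune effectors of the gut fell in most lists, with exceptions of which some are named. Of 18 tested caenopores, saposin-like peptides that permeabilize bacterial membranes, 13 fell and 4 rose, or 13 and 2 without injured library 2. spp-2 (X, 7315995 to 7316818) read 372, 388, 587 and 440 in controls and 30.3, 36.0, 33.4 and 48.6 after injury, 11.9-fold lower (log2 -3.57 ± 0.17, limma adjusted p = 1.57e-07). spp-5 fell from 3628 ± 257 to 722 ± 168. spp-20 ran against them and read 9.93, 13.3, 14.98 and 10.8 in controls and 58.5, 82.9, 59.0 and 55.6 after injury (log2 2.34 ± 0.16, limma adjusted p = 1.04e-06). Of 6 tested lys lysozymes 5 fell, among them lys-7 at 4.11-fold, and lys-3 alone rose. Of 4 tested invertebrate-type lysozymes 2 rose and 1 fell, with a median of 0.42, and the lower gene was ilys-5 at 7.51-fold.

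Of 264 C-type lectin genes 86 were tested, and 59 of them fell while 10 rose, with a median of -1.04. In RPKM as deposited 37 fell and 11 rose. clec-186 fell from 110 ± 9.48 to 18.4 ± 5.09. clec-87, clec-88 and clec-91 were among the 10 that rose after scaling, at 2.85-fold, 2.77-fold and 2.48-fold higher. Their levels in injured libraries ordered as those of oocyte genes did, with library 1 the highest and library 2 the lowest for each. Among 20 genes of CUB-like domain and irg effectors 16 fell and 2 rose, or 16 and 1 without control library 4. dod-21 (IV, 12936738 to 12937988) read 39.5, 38.1, 34.5 and 38.6 in controls and 0.713, 0.571, 0.943 and 2.03 after injury. The injured libraries were close to the filter, a log2 change of -4.69 ± 0.23 (limma adjusted p = 1.57e-07). dod-24, its neighbour on chromosome IV, fell 14.2-fold and T24B8.5, a target of the p38 pathway, 4.22-fold.

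Detoxification and metal genes fell more often than they rose relative to the median gene. Of 53 tested cytochrome P450 genes 31 fell and 10 rose, but 9 fell and 11 rose in RPKM as deposited. cyp-34A9 fell from 45.6 ± 10.6 to 6.52 ± 1.96. cyp-31A2, which is needed for the lipid layer of the eggshell, and its relative cyp-31A5 rose 3.52-fold and 3.91-fold. Of 58 UDP-glucuronosyltransferases 32 fell and 4 rose, or 16 and 6 in RPKM as deposited. Of 38 glutathione S-transferases 18 fell and 8 rose, or 6 and 9 in RPKM as deposited. Their median there was 0.02, against 0.52 for the median gene. Metal genes included none higher and 7 of 12 lower, with the cadmium-responsive cdr-2 at 6.96-fold, the ferritin ftn-1 at 3.92-fold and the metallothionein mtl-1 at 3.68-fold. In RPKM as deposited 2 metal genes rose and 4 fell. The mitochondrial superoxide dismutases differed, as sod-3 fell from 18.5 ± 3.03 to 5.23 ± 1.29 and sod-2 rose from 44.7 ± 5.26 to 87.2 ± 11.8.

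Within 10 genes of the hypoxia pathway 3 rose and 3 fell, or 3 and none in RPKM as deposited. These were 30% each after scaling, near the shares over all tested genes, with a median of -0.12. The 3 genes named next all rose, so they do not stand for the list. cysl-2, a cyanoalanine synthase that HIF-1 induces, read 16.6, 15.3, 14.3 and 16.1 in controls and 49.5, 49.98, 49.2 and 41.4 after injury. Replicates lay close together, and the rise was 2.98-fold (log2 1.58 ± 0.11, limma adjusted p = 1.02e-06). rhy-1, a regulator of HIF-1 that is also its target, rose from 6.69 ± 0.896 to 18.4 ± 1.73, and the flavin monooxygenase gene fmo-2 from 1.03 ± 0.278 to 8.46 ± 2.85.

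Genes of the cuticle were lower. Of 159 col collagen genes 99 were tested, 4 of them without an injured library at 1 RPKM, and 77 fell while none rose, with a median of -1.07 and 43 lower in RPKM as deposited. Among collagens named for body shape 12 of 17 tested fell, or 8 in RPKM as deposited. dpy-14 read 65.0, 61.3, 68.2 and 69.2 in controls and 24.6, 13.2, 23.2 and 32.01 after injury, 2.92-fold lower (log2 -1.55 ± 0.21, limma adjusted p = 7.93e-05). sqt-3 fell 2.73-fold. Of 18 genes that process or shed cuticle 15 fell, or 5 in RPKM as deposited. The 15 included the peroxidase gene skpo-1, from 352 ± 31.6 to 112 ± 20.4, and mlt-10, a molting gene, from 7.98 ± 1.70 to 2.02 ± 0.504. Hedgehog-related and patched-related genes fell in 30 of 49 cases and rose in 4, or 10 and 4 in RPKM as deposited. The ligand-like grd-3 fell 5.93-fold and grd-5 fell 4.16-fold, whereas ptc-1, a patched gene of the germline, rose 1.69-fold and ptr-2 rose 2.49-fold.

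Basement membrane genes fell in 17 of 19 cases, with a median of -0.84, while in RPKM as deposited 7 fell and the median was -0.34. The laminin gamma gene lam-2 (X, 7143846 to 7151239) read 58.0, 78.5, 48.3 and 71.5 in controls and 23.1, 18.3, 21.7 and 25.15 after injury. The libraries did not overlap, a fall of 2.83-fold (log2 -1.50 ± 0.16, limma adjusted p = 1.54e-05). nid-1, the nidogen that links laminin to collagen, fell from 38.9 ± 4.37 to 9.18 ± 2.23 and the laminin alpha gene epi-1 from 28.9 ± 6.96 to 10.4 ± 1.98. The type IV collagens let-2 and emb-9 fell 2.08-fold and 1.81-fold, calls that were lost in RPKM as deposited. fbl-1, the fibulin gene, ran the other way, from 5.94 ± 0.212 to 10.7 ± 1.28, and him-4, hemicentin, rose by 0.42 with overlapping libraries (limma adjusted p = 0.0380), a call lost without control library 1, 3 or 4 or injured library 1, 3 or 4, with log2 changes of 0.35 to 0.42 there.

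Muscle genes stood lower than the median gene, but their calls rested on the scaling. Of 32 body wall muscle genes 21 fell and 1 rose, with a median of -0.42 against 0.06 for the median gene. In RPKM as deposited none fell, 2 rose and the median was 0.07, against 0.52 for the median gene. unc-54 (I, 14855901 to 14863482), the major myosin heavy chain, read 104, 156, 72.1 and 98.5 in controls and 46.2, 50.3, 47.2 and 66.5 after injury. The groups were apart by a narrow gap (log2 -0.99 ± 0.20, limma adjusted p = 0.00137). csq-1, the calcium buffer calsequestrin, fell 2.19-fold and itr-1, the IP3 receptor of calcium stores, 2.13-fold, both also lost in RPKM as deposited. The pharyngeal myosins myo-1 and myo-2 stood higher instead, by 0.70 ± 0.24 (limma adjusted p = 0.0227) and 0.53 ± 0.20 (limma adjusted p = 0.0379), with overlapping libraries. Their calls were lost in 5 and 6 of the 8 fits that left out 1 library.

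Of 27 pan-neuronal genes 5 rose and 3 fell, while 11 rose and none fell in RPKM as deposited and 14 rose and 1 fell after scaling to reads outside rRNA genes. unc-31, needed for release of dense core vesicles, rose from 3.89 ± 0.345 to 6.59 ± 0.186 and syd-2, which organizes presynaptic zones, fell from 17.3 ± 1.68 to 9.01 ± 0.805. Of 30 FMRFamide-like peptide genes 6 rose and 2 fell, or 5 and 8 without injured library 2 and 9 and none in RPKM as deposited, with flp-33 from 12.3 ± 3.05 to 28.2 ± 12.8. Of 33 tested nlp peptide genes 9 rose and 6 fell, or 12 and 1 in RPKM as deposited. nlp-40, a peptide that the intestine releases to time defecation, fell from 484 ± 58.6 to 236 ± 46.6. Genes of dopamine neurons and their pathway fell in 11 of 19 tested cases and rose in 2. In RPKM as deposited 3 fell and the median was 0.02, against 0.52 for the median gene. ceh-43, a homeodomain factor that dopamine neurons need, read 22.7, 15.7, 19.4 and 16.3 in controls and 6.78, 6.11, 6.72 and 6.26 after injury. The injured libraries were tightly grouped below all controls (log2 -1.44 ± 0.13, limma adjusted p = 7.03e-06). bas-1, the aromatic amino acid decarboxylase that acts after cat-2, fell from 18.5 ± 1.44 to 7.01 ± 1.88. Neither gene is restricted to dopamine neurons in a whole worm.

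Signalling genes included members in each direction. Of 30 tested genes of MAP kinase and AP-1 signalling 5 rose and 9 fell, or 10 and 1 in RPKM as deposited. Most of the lower calls of that list were thus lost there. nsy-1 and tir-1, upstream of the p38 kinase pmk-1, fell 2.46-fold and 1.91-fold. pmk-1 itself read 31.8, 32.5, 31.5 and 32.7 in controls and 21.8, 29.9, 24.6 and 21.6 after injury, a log2 change of -0.40 ± 0.12 (limma adjusted p = 0.0132) that turned to 0.11 in RPKM as deposited. mpk-1, the ERK kinase of oocyte maturation, rose from 33.4 ± 2.47 to 52.8 ± 9.72. cebp-2, a C/EBP transcription factor, rose from 18 ± 1.36 to 36.7 ± 4.83. Of 16 genes of the insulin pathway 6 rose and 1 fell, the kinase gene sgk-1 at 1.88-fold, a call lost in RPKM as deposited.

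F-box genes of the B family, which encode substrate adaptors of ubiquitin ligases, were among the most uniform falls. Of 113 listed 37 were tested, of which 15 had no injured library at 1 RPKM, so that these passed the filter through the controls alone. With that limit, 33 fell and none rose, with a median of -1.91, and without control library 4 it was 18 of 22 tested. fbxb-45 (II, 1042937 to 1044032) read 16.9, 10.9, 14.8 and 17.6 in controls and 1.24, 1.495, 1.44 and 1.55 after injury. The injured values were nearly equal to each other and 7.95-fold below the controls (log2 -2.99 ± 0.16, limma adjusted p = 2.36e-07). Its neighbour fbxb-41 fell 10.6-fold and fbxb-66 on chromosome I fell 5.67-fold. In the A family 46 of 144 tested were higher and 32 lower, and 8 of the tested had no control library at 1 RPKM, so that these passed through the injured libraries alone. Without injured library 2 the counts were 35 higher and 39 lower of 131, and in RPKM as deposited 52 higher and 6 lower. fbxa-155 rose from 1.02 ± 0.252 to 6.18 ± 0.767. Of 53 tested MATH and BATH adaptor genes, 5 of them without a control library at 1 RPKM, 22 rose and 17 fell, or 17 and 19 of 47 without injured library 2 and 24 and 8 in RPKM as deposited, with bath-10 from 12.6 ± 1.55 to 1.74 ± 0.176.

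Among all genes, the largest rises were mostly of genes without a characterized product. C08E3.1 (II, 1633790 to 1634121) read 0, 0.673, 0 and 0.863 in controls and 32.6, 14.6, 24 and 29.2 after injury. C27H5.6 followed with 0.517, 0.545, 1.07 and 1.01 in controls and 21.0, 30.7, 22.8 and 21.7 after injury. Both were near the detection limit in controls and clearly detected in every injured library. No control library reached 1 RPKM for C08E3.1, so it passed the filter through the injured libraries alone. Y60C6A.1 and Y60C6A.2, neighbours on chromosome V, rose 10.8-fold and 8.68-fold. W09G12.7 rose from 14.9 ± 3.52 to 132 ± 26.4.

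The largest falls included C32H11.9 (IV, 12935011 to 12936271), beside dod-21. It read 24.6, 30.2, 23.3 and 28.4 in controls and 0.172, 0.129, 0.262 and 0.180 after injury (log2 -5.30 ± 0.14, limma adjusted p = 2.13e-09). No injured library reached 1 RPKM, so C32H11.9 passed the filter through the controls alone. clx-1 read 55.2, 116, 118 and 81.6 in controls and 1.90, 1.40, 2.05 and 3.47 after injury. Neither gene overlapped between the groups, and the SE of the second was the larger at 0.26. thn-2, a thaumatin-like immune effector, fell from 806 ± 72.4 to 66.4 ± 11.5. drd-10 fell from 210 ± 212 to 8.82 ± 6.84, a control mean carried by control library 3 at 526.

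Shares of the summed RPKM do not depend on scaling between libraries, and 6 lists were compared by them. Ribosomal protein genes took 9.93%, 9.82%, 9.81% and 8.40% of the control libraries and 16.7%, 16.7%, 16.1% and 14.6% of the injured ones. Vitellogenins took 3.01%, 4.94%, 2.30% and 2.86% of controls and 0.524%, 0.589%, 0.664% and 1.24% after injury. These 2 lists thus differed by 6.53 and -2.52 percentage points, without overlap. The oocyte RNA-binding list rose from 0.190% ± 0.0347 to 0.576% ± 0.162 and the proteasome from 0.380% ± 0.0303 to 0.670% ± 0.0724. For these 4 lists the two-sided exact permutation p was 0.0286, the smallest that 4 against 4 allows, and 0.0429 adjusted over the 6. Many of the other lists reached the same exact permutation p, among them P granule, histone and pan-neuronal genes. The lists were also chosen with earlier results of these data known, so this p does not single these 4 out. Cuticle collagens, at 1.02% ± 0.167 and 0.675% ± 0.204, and mitochondrial DNA genes, at 1.42% ± 0.161 and 1.03% ± 0.199, overlapped between groups (exact p = 0.0571). Without control library 4 the adjusted p of the 4 lists was 0.0571 to 0.0686.

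**Figure D3:**
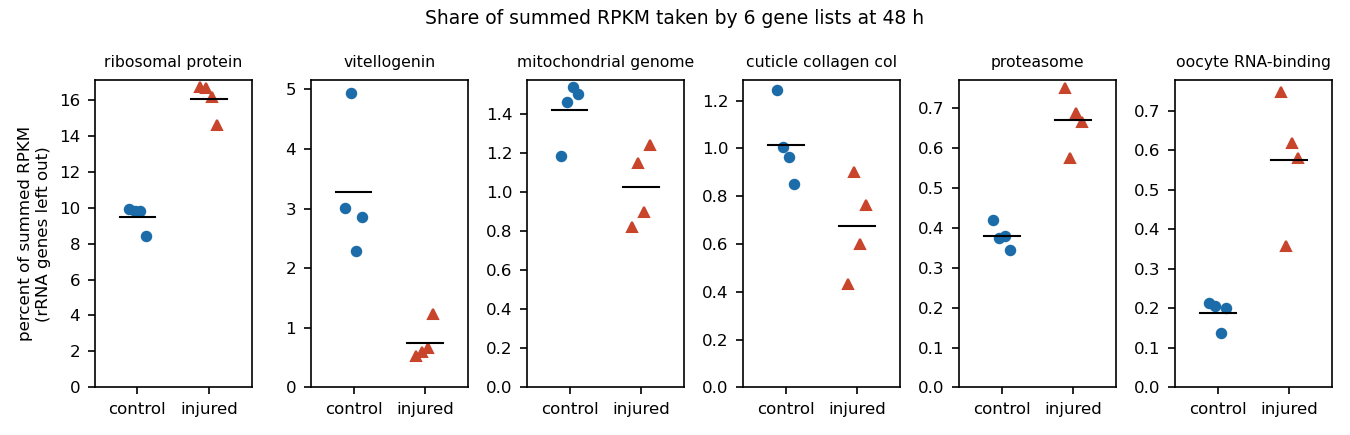
Share of the summed RPKM, rRNA genes left out, taken by 6 gene lists in each library at 48 h. Circles are control libraries, triangles injured libraries and black bars group means, with every axis from 0. Ribosomal protein genes lay at 8.40% to 9.93% in controls and 14.6% to 16.7% after injury, and collagen and mitochondrial DNA genes overlapped between groups.

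The effect at 48 h was set against that at the other times by an interaction in limma over all 24 libraries and 14813 genes. It differed from the effect at 8 h for 6193 genes, 41.8%, of which 2943 had a higher and 3250 a lower effect at 48 h. It differed from the effect at 96 h for 2208 genes, 14.9%, of which 1046 had a higher and 1162 a lower effect at 48 h. Without control library 4 the latter count was 1344 genes. In RPKM as deposited 5462 genes differed from 8 h and 2209 from 96 h, both directions together. Germline genes had a higher effect at 48 h than at 8 h. In the oocyte RNA-binding list 23 of 25 genes had a higher effect at 48 h than at 8 h, as did 26 of 30 meiotic and 53 of 66 mitochondrial ribosome genes. Over the oocyte list the mean log2 level was 6.86 in controls and 6.99 in injured worms at 8 h, 5.31 and 6.62 at 48 h, and 4.70 and 6.66 at 96 h. The control mean was thus lower at the later times while the injured mean stayed near its level at 8 h, which is a description without a test.

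Other lists had a lower effect at 48 h than at 8 h. Of 32 body wall muscle genes 28 did, or 5 in RPKM as deposited, and of 19 basement membrane genes 16 did, or 7 in RPKM as deposited. Among heat shock genes 14 of 24 had a lower effect at 48 h than at 8 h and 14 of 24 a lower one than at 96 h, or 10 and 9 in RPKM as deposited. hsp-70 showed log2 changes of 3.61 at 8 h, -0.53 at 48 h and 2.04 at 96 h. F44E5.4, an Hsp70 gene with a near-identical neighbour, went through 3.90, -0.25 and 2.66, and hsp-16.41 through 3.56, -0.58 and 1.99. In controls the heat shock list averaged 5.79 at 8 h, 6.70 at 48 h and 6.92 at 96 h on the log2 scale, and in injured worms 7.36, 6.81 and 8.12. fos-1 had a log2 effect of 1.14 at 8 h, 0.0061 at 48 h and 0.64 at 96 h, with a difference of -1.14 between 48 and 8 h (limma adjusted p = 0.00139).

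**Figure D4:**
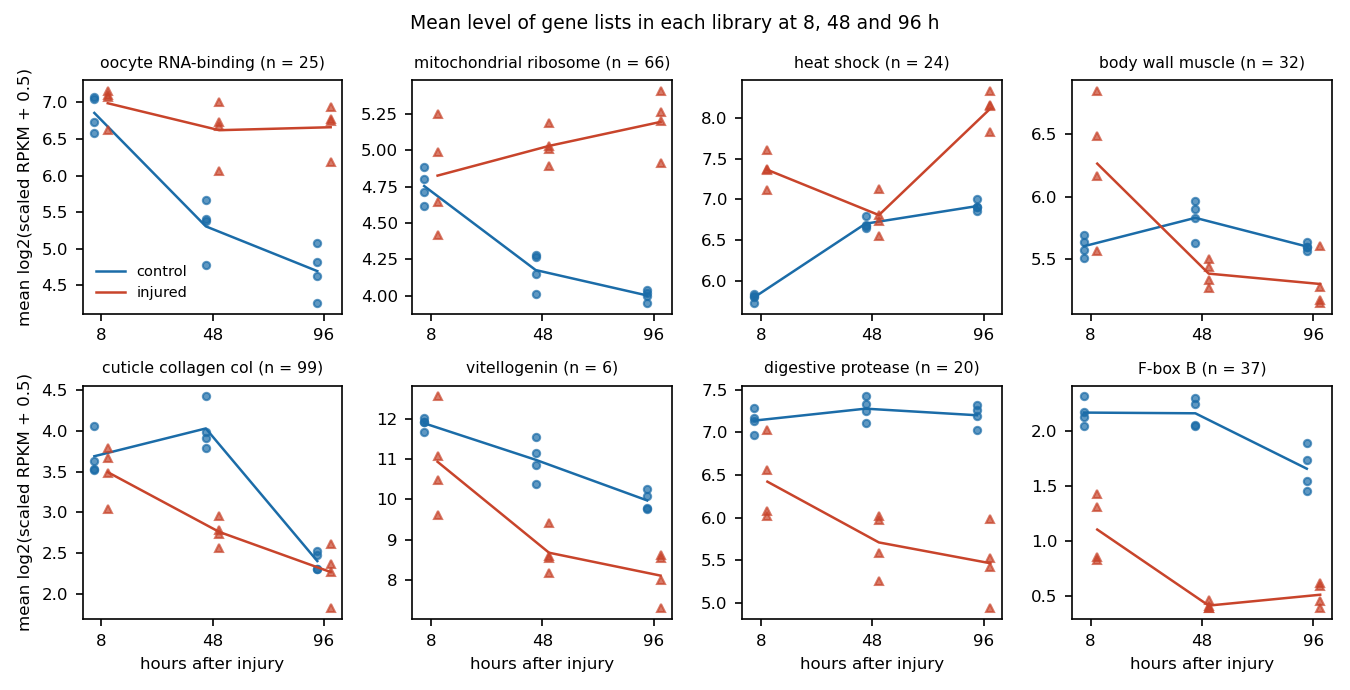
Mean level of 8 gene lists in each library at 8, 48 and 96 h, as the mean of log2(scaled RPKM + 0.5) over the genes of a list. Circles and blue lines are controls, triangles and red lines injured worms, and lines join group means. For oocyte RNA-binding genes the control mean was 6.86, 5.31 and 4.70 and the injured mean stayed between 6.62 and 6.99, while for cuticle collagens the groups were apart at 48 h and close at 8 and 96 h.

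Cuticle collagens differed between 48 and 96 h. Of 99 genes 43 had a lower effect at 48 h than at 96 h, or 37 without control library 4 and 13 in RPKM as deposited, and 2 a higher one. Larger shares of some other lists had a lower effect at 48 h, with 13 of 21 transfer RNA synthetase and 37 of 77 ribosomal protein genes, none of them in RPKM as deposited, where 33 of 46 transthyretin-like genes and 33 of 86 C-type lectins had a higher one. The mean level of the collagen list was 4.03 in controls and 2.76 in injured worms at 48 h against 2.41 and 2.27 at 96 h. col-92 read 38.9, 25.7, 19.9 and 29.0 in controls and 0.361, 2.72, 3.98 and 8.01 after injury at 48 h, and its log2 effect was -3.14 at 48 h and 1.23 at 96 h. col-139, col-129, col-39, col-93 and col-20 likewise had negative effects at 48 h and positive ones at 96 h. acdh-1, the first enzyme of the propionate shunt, went from -2.0 at 48 h to 2.42 at 96 h, and lips-13, a lipase-like gene, from 1.97 to -2.08.

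**Figure D5:**
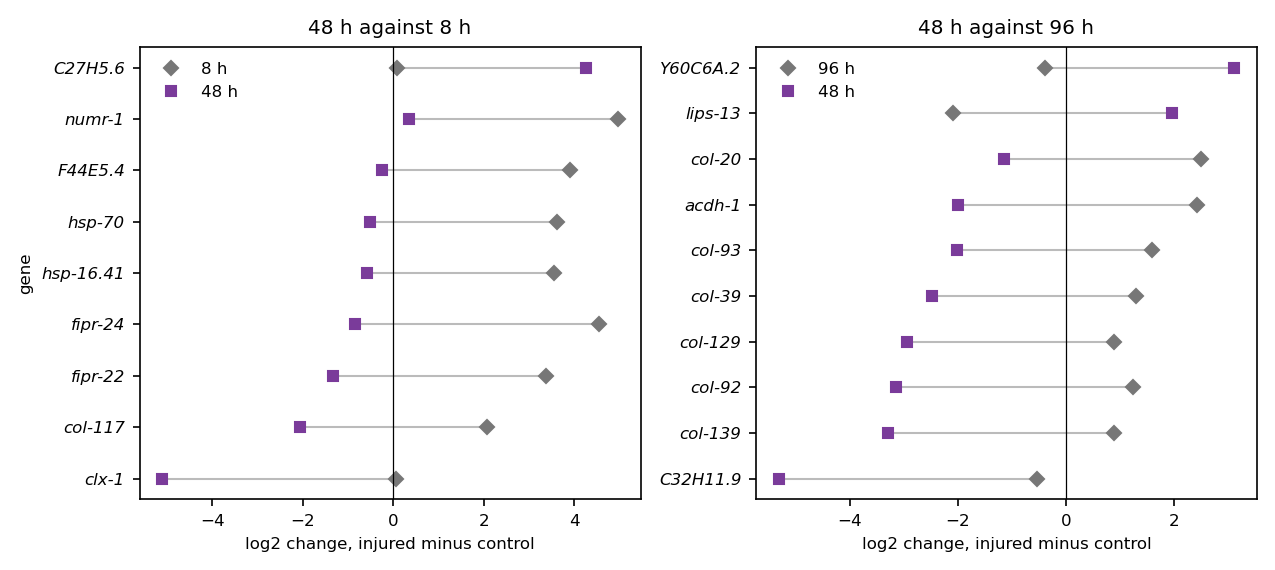
Log2 effect of injury at 48 h (squares) against the effect at 8 h (left, diamonds) and at 96 h (right, diamonds) for the genes with the largest differences in either interaction. The heat shock genes hsp-70, hsp-16.41 and F44E5.4 lie above 3.5 at 8 h and below 0 at 48 h, and 6 collagen genes lie below 0 at 48 h and above 0 at 96 h.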

How the data were processed

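Poly(A) RNA of whole worms was sequenced in 6 groups of 4 libraries. The authors mapped reads to ce11 and counted them in CLC Genomics Workbench, and deposited RPKM for 46739 features. The deposited columns of p-values hold the authors' own comparisons and were not used. Mapping settings, annotation release and strand are not given in the sources used here, so near-identical copies and antisense neighbours may share reads. Positions come from an annotation matched by symbol (41376 features) or sequence name (3840), with 1523 not matched.

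Genes were kept that reached 1 RPKM in 4 or more of the 8 libraries. Scaled RPKM is the deposited RPKM divided by a median-of-ratios factor taken over genes above 0 in all 8 libraries, rRNA genes left out. limma 3.58.1 in R 4.3.3 (trend and robust) was fitted to log2(scaled RPKM + 0.5), so fold changes of low genes are understated, with Benjamini-Hochberg adjustment over 13611 genes and a threshold of 0.05. Interactions came from the same model over 24 libraries. List shares were compared by two-sided exact permutation over 70 arrangements. The fit was tested on simulated data. Depth was estimated from RPKM steps, at which 72.6% to 78.7% of 289 to 377 low values came out as whole reads within 0.1. The scaling alternative TMM was written out as a function. Other tools were Python 3.11.15, numpy 2.4.6, pandas 2.3.3 and matplotlib 3.10.9, with version 1.17.8 of data.table.

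Named genes were the study's 4 genes and the RNAi target, the 15 largest rises and 15 largest falls, up to 5 members of each of 77 lists with the smallest p, members against their list's majority, and 10 genes of each interaction. A gene that met this rule is not reported here. The members and lists were chosen with earlier results of these data known. rme-2, inx-9, eef-1A.1, asg-1, hsp-4, elt-2, act-5, elo-5, gpd-2, gpd-3, epi-1, let-2, emb-9, unc-54 and pmk-1 were named outside this rule after their values were seen. Promoter motifs were not analysed here.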

Additional observations from a re-analysis of the deposited data

Results flagged for a closer look

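In 22 of 454 groups of 4 libraries 1 library lay far from the other 3, by the gap to the nearest of them set against the group's whole range, and chance gives about 1 in 20 such groups. Control library 4 held 46.1% rRNA reads (nearest other 8.29%) and an 8.40% share of ribosomal protein genes (nearest other 9.81%). Control library 3 held a 0.138% share of oocyte RNA-binding genes (nearest other 0.201%). It was also low for glh-4 at 9.21 (14.5), ego-1 at 6.42 (7.81) and his-24 at 136 (170), each with the nearest other in parentheses. It was high for cyp-34A9 at 61.4 (40.9), ins-11 at 6.50 (2.63) and drd-10 at 526 (130). Control library 2 was high for sago-1 at 53.2 (48.2) and low for pas-5 at 95.5 (119) and fbxa-155 at 0.649 (1.11). Injured library 2 was high for vhp-1 at 133 (125), lys-3 at 86.0 (60.1), asg-2 at 75.5 (62.7), hsp-70 at 32.7 (21.1), F44E5.4 at 502 (364) and spp-20 at 82.9 (59.0). Injured library 1 was high for psf-3 at 54.5 (41.7). Injured library 4 was high for lys-7 at 1187 (936) and H39E23.3 at 4.59 (1.97) and low for cysl-2 at 41.4 (49.2).

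The effect of injury at 48 h differed from that at 8 h, on the log2 scale in limma's interaction, for C27H5.6 by 4.17, clx-1 by -5.16, hsp-70 by -4.14, fipr-22 by -4.70, fipr-24 by -5.39, numr-1 by -4.62, F44E5.4 by -4.15, hsp-16.41 by -4.14 and col-117 by -4.14. The call for col-117 was lost in RPKM as deposited (limma adjusted p = 0.0763). The effect at 48 h differed from that at 96 h for Y60C6A.2 by 3.49, C32H11.9 by -4.77, col-139 by -4.17, acdh-1 by -4.43, lips-13 by 4.05, col-92 by -4.37, col-129 by -3.83, col-39 by -3.77, col-20 by -3.64 and col-93 by -3.61. These calls were kept in RPKM as deposited and without control library 4.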

How the results depend on the processing

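No paired analysis was possible because the columns carry no replicate numbers that tie injured to control libraries. Of 19 alternatives, array weights called 10777 genes and RPKM as deposited 6618. With RPKM as deposited 1133 genes were lower and 4255 changed at least 2-fold, and after scaling to reads outside rRNA genes 2481 were lower. Leaving out 1 library at a time gave 7409 to 8758 changed genes, 3931 to 4676 higher, 3478 to 4082 lower, 2412 to 2937 changed at least 2-fold and 7582 to 8956 without overlap. Without control library 4 the effect differed from 8 h for 5966 genes and from 96 h for 1344, and the shares differed by -2.66 percentage points for vitellogenins, 6.17 for ribosomal proteins and 0.279 for the proteasome (exact permutation, adjusted p = 0.0571), 0.391 for oocyte RNA-binding genes (0.0686), -0.396 for collagens (0.0686) and -0.367 for mitochondrial DNA genes (0.114). Of 220 named genes, 173 kept direction and call as deposited or were called in neither fit, 40 lost the call and 2 gained it. Direction turned for 5, none past the threshold: ife-2 0.16, ucr-2.1 0.052, asg-2 0.027, hsp-16.2 0.016 and pmk-1 0.11. Under the other alternatives no named gene turned that was called in the main fit or in the alternative. The direction of genes called in neither fit was not compared. Of 76 list medians 21 changed sign as deposited, where the median gene itself stood at 0.52. After scaling to reads outside rRNA genes 12 did, after scaling to summed RPKM 8 and under TMM 1. Genes near 1 RPKM rest on few reads.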

Other observations

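Chromosome X differed from the autosomes in the direction of its calls, a count made after the data were seen. As background, genes expressed in the germline are scarce on X. Of 1953 tested genes on X 14.4% rose and 45.5% fell, with a median log2 change of -0.30. On the autosomes 31.6% to 41.6% rose and 20.2% to 31.1% fell, with medians between -0.0002 on V and 0.22 on III. In RPKM as deposited 17.8% of X genes rose and 10.7% fell, against 38% to 50.2% and 4.74% to 10.2% on the autosomes. Without control library 4 X held 12.7% higher and 42.6% lower.

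Histone genes and insulin-like peptides had members in both directions. Of 58 tested histone genes 14 rose and 14 fell, or 22 and none in RPKM as deposited, and poly(A) selection captures most histone mRNAs poorly. The linker histones hil-4 and hil-5 rose from 74.7 ± 19.1 to 234.9 ± 58.5 and from 41.5 ± 10.9 to 157 ± 46.7, while his-24, a linker histone on X, fell from 164 ± 18.3 to 85.3 ± 2.59, a call lost in RPKM as deposited. Of 27 tested insulin-like peptides 7 rose and 8 fell, or 13 and 2 in RPKM as deposited. daf-28, which promotes reproductive growth, rose 2.77-fold, ins-23 rose 3.82-fold, ins-11 rose 2.58-fold and ins-2 fell 3.20-fold. nuc-1, the DNase that clears DNA of engulfed cells and of food, fell from 85.3 ± 8.90 to 24.1 ± 5.03.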
